A study of Mus musculus with 6 samples.

Results

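The SMAD family is the set of intracellular proteins that carry signals of the TGF-beta and BMP ligands from the receptors at the cell surface to the nucleus. The gene symbols Smad1 to Smad7 and Smad9 were selected by name, which gave 8 genes of the 24421 symbols in the counts. They were followed in endothelial cells sorted by flow cytometry from subcutaneous B16F0 tumours, a transplantable mouse melanoma, in C57BL/6 mice. The 15C4 group (3 libraries, 15C4 1 to 3) had received 15C4, an antibody that blocks the secreted glycoprotein LRG1, and the control group (3 libraries, IgG 1 to 3) had received IgG. Both were dosed at 50 mg/kg every 3 days, and the tumours grew for 17 days. The labels name no other allele or treatment, give neither the age of the animals nor the markers of the sort, and do not say whether each library came from its own mouse, and the p-values here therefore cover the variation among the sequenced libraries alone, part of which may be technical.

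Ligands of this superfamily bring together type I and type II receptor kinases, and the type I receptor phosphorylates the receptor-regulated SMADs. SMAD1, SMAD5 and SMAD9 are the receptor-regulated members of the BMP branch, SMAD2 and SMAD3 those of the TGF-beta and activin branch. They pair with the common SMAD4 and enter the nucleus, while SMAD6 and SMAD7 are inhibitory members whose own genes are induced by the pathway. In endothelium the receptor ALK1 with endoglin signals through the BMP branch and ALK5 through the TGF-beta branch, and LRG1 is known to favour the ALK1 arm. How the family's transcripts stand when LRG1 is blocked is the question this comparison addresses.

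The libraries held between 5175600 (IgG 1) and 19572202 counts (15C4 2). As a check of the labelled cell type, the 20 pan-endothelial markers summed to 1514 to 3228 CPM in antibody-treated libraries and to 1887, 2674 and 211 CPM in IgG 1, 2 and 3 (CPM, a gene's counts scaled to the total count of its library), with at least 19 of the 20 detected in each library. The total of the 13 melanocyte lineage markers was 23702 to 28980 CPM over the 6 libraries, so the levels below are those of a mixture, in which fewer cells of a type and less RNA per cell cannot be told apart. Lymphatic markers (7 genes, Ccl21a at 0 throughout) reached 1168 CPM in IgG 2 and at most 63.8 CPM elsewhere. T and NK cell markers (11 genes found, Cd4 at 0 throughout) reached 471 CPM in IgG 1 and at most 11.7 CPM elsewhere. Fibroblast markers (8 genes) reached 153 CPM in 15C4 3 and 94.9 CPM in IgG 1, macrophage markers (11 genes) to at most 52.4 CPM and pericyte markers (8 genes) to at most 42.4 CPM. IgG 3 thus stood apart by its low endothelial sum, and some of the differences below are also given without it.

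Promoters of 4 members are shown because their genes span the range of levels in these libraries: Smad5, which was high in every library, Smad3 and Smad6, neighbours of unlike level, and Smad9, which was near 0. Each is the stretch of 250 bases before an annotated RefSeq start on GRCm38.p6, written 5′ to 3′ on the gene's strand; for Smad5 it is the middle one of 3 annotated starts. Smad5 is at chr13:56702802-56703051 (plus), Smad3 at chr9:63757995-63758244 (minus), Smad6 at chr9:64022060-64022309 (minus) and Smad9 at chr3:54755332-54755581 (plus). Capitals mark matches, on either strand, to GGCGCC, the GC-rich motif bound by BMP SMADs, to GTCTAGAC, the palindromic SMAD binding element, or to CAGAC, the SMAD box.
Smad5 promoter: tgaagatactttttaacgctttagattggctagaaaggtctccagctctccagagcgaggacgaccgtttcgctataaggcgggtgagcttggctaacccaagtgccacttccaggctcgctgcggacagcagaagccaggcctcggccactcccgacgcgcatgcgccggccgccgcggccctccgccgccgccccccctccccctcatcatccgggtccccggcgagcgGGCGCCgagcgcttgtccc
Smad3 promoter: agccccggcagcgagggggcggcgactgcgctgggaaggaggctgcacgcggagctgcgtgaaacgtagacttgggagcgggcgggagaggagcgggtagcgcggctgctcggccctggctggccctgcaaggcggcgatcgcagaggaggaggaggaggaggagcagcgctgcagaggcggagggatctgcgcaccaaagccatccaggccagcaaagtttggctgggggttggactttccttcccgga
Smad6 promoter: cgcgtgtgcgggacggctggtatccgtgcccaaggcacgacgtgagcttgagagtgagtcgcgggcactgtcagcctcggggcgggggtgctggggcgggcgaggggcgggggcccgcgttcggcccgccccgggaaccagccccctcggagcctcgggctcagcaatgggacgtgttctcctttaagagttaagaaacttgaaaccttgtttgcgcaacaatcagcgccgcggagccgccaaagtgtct
Smad9 promoter: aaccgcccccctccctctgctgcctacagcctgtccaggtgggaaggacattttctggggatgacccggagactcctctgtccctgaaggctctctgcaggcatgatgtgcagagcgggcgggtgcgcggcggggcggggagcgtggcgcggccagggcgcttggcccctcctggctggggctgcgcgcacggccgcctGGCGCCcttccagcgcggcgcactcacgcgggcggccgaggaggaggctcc

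Promoter stretches were searched for 5 members (Smad1, Smad3, Smad5, Smad6 and Smad9), which had 7 entries. Smad2, Smad4 and Smad7, on chromosome 18, were left out of this search. GGCGCC occurred once each in 2 of the 7 entries, that of Smad9 and the middle of the 3 Smad5 starts. It was held by 9.59% of 32851 promoter stretches of the same length in the table. The palindrome, which 0.167% of stretches hold, was in none of the 7. CAGAC, held by 42.2% of stretches, was found in 1 of the 7 entries, that of the Smad5 start farthest downstream. No motif searched contains another, and GGCGCC and GTCTAGAC read the same on both strands. The stretches were rich in G and C, with 66.8% in Smad6, 69.2% in Smad3 and 73.2% in Smad9, where the median over the table was 52.4%. These matches describe letters in a window and say nothing of binding.

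The members lie on 5 chromosomes of GRCm38. Smad1 is on chromosome 8 (79338395 to 79399518, minus strand), Smad5 on chromosome 13 (56703010 to 56742377, plus strand) and Smad9 on chromosome 3 (54755582 to 54801257, plus strand). Smad2 (76241580 to 76310963, plus strand), Smad4 (73639009 to 73703780, minus strand) and Smad7 (75367529 to 75395935, plus strand) share chromosome 18. Smad3 (63646767 to 63757994) and Smad6 (63953076 to 64022059) lie on the minus strand of chromosome 9 with 195 kb between them. In this annotation Gm27301, Gm27834 and Gm27271 overlapped Smad5 on its strand, and the pseudogene AC132418.2 overlapped Smad4 on the opposite strand. None of these is among the symbols in the counts, so reads from them could not be looked at. No other gene overlapped a member. Values are sums over whole genes.

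Compared per length, as CPM per kilobase of exon, Smad4 had the highest mean of the members at 29.4 ± 15.7 (SD over all 6 libraries), followed by Smad5 at 20.6 ± 2.73 and Smad1 at 19.2 ± 9.82. Smad7 was at 9.19 ± 4.06, Smad2 at 7.74 ± 3.90 and Smad3 at 7.64 ± 4.45 CPM per kilobase. Smad6 was at 1.03 ± 1.69 and Smad9 at 0.0716 ± 0.120. The upper ranks are not firm and differ by group: in 15C4 the mean of Smad4 was 18.8 CPM per kilobase, below Smad1 at 23.1 and Smad5 at 20.8, and in IgG it was 40.0, above Smad5 at 20.4 and Smad1 at 15.3. Over single libraries, Smad4 was above Smad5 in 4 of the 6 libraries, Smad5 above Smad1 in 3, Smad7 above Smad2 in 4 and Smad2 above Smad3 in 3. Smad1 was above Smad7 in 5 libraries. Smad3 was above Smad6 in 6 of 6, and the means step down there to the 2 scarce members, an inhibitory one and a BMP-branch one. This break was not seen in every library. In 15C4 3, Smad6 was at 4.34 CPM per kilobase, near Smad3 at 4.69 and above Smad2 at 2.83.

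**Figure D1:**
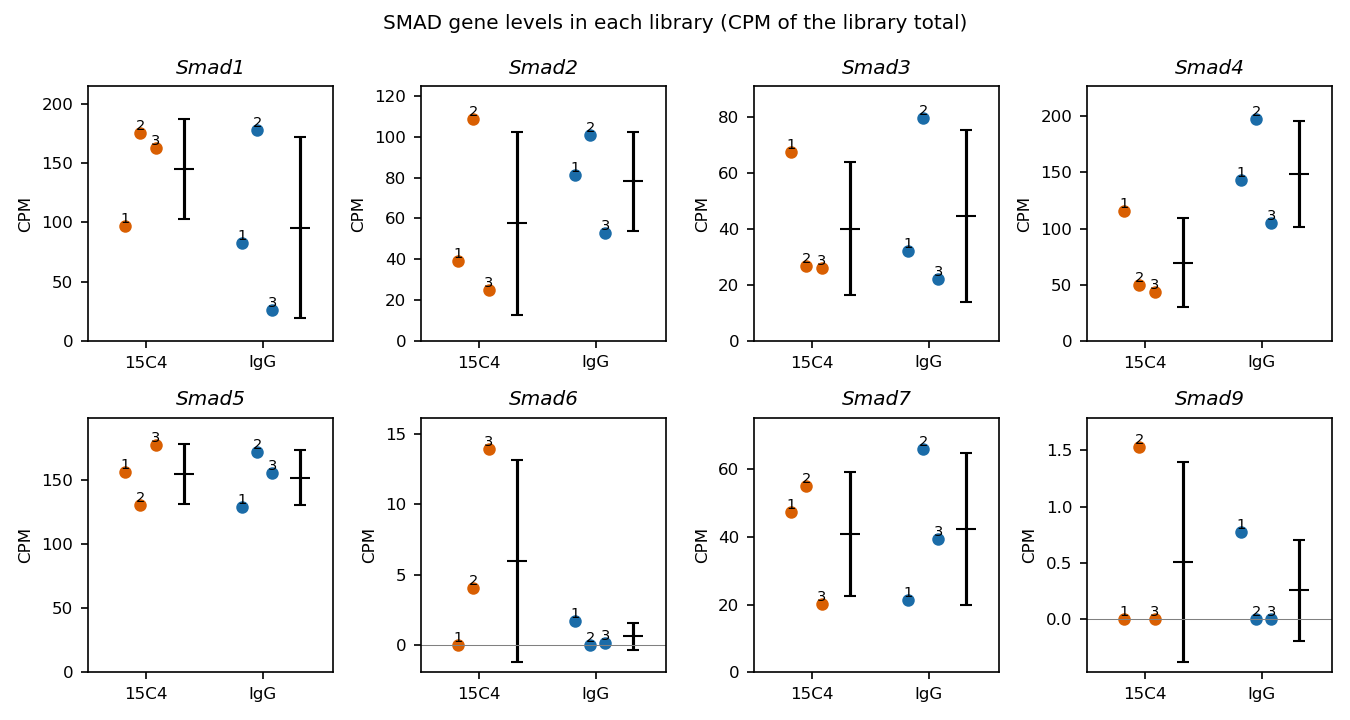
Level of each SMAD gene in each library, in CPM of the library total (linear axes, each with its own range); numbered points are libraries 1 to 3 of the 15C4 (orange) and IgG (blue) groups and black bars the group mean ± SD. The groups overlap for each of the 8 genes, Smad5 stays between 128 and 177 CPM, and IgG 3 has the lowest Smad1 value at 26.1 CPM.

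No member passed the test between 15C4 and IgG, and the 2 groups overlapped in CPM for each of the 8 genes. edgeR's quasi-likelihood test called 0 of the 7 tested members at an adjusted p under 0.05, where it called 0.0% of all 11144 genes, and 0 members at an unadjusted p under 0.05, where it called 288 genes (2.58%). limma-voom, with and without sample weights, called 0 genes, and DESeq2 called 26 (0.233%), none of them a SMAD gene. At an unadjusted p under 0.05, DESeq2 called 4.08% of genes, limma-voom 4.14% and limma-voom with sample weights 4.56%, and the 1 member among them in each case was Smad4 (unadjusted p = 0.0495, 0.0367 and 0.0231). The groups did not overlap for 9.52% of tested genes. The median log2 fold change (15C4 over IgG) was 0.03 over the 7 members, 4 above 0 and 3 below, and 0.01 over all genes. Smad9 was too low to be tested, so the 7 are not the whole family.

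Among the BMP-branch members, Smad1, which encodes the transducer used by ALK1 and the BMP receptors, was at 97.0, 175 and 163 CPM in 15C4 1, 2 and 3 and at 82.9, 178 and 26.1 CPM in IgG 1, 2 and 3. IgG 3 was far below the other 5, and IgG 2 was level with the highest 15C4 library. The mean was 145 ± 41.9 CPM with 15C4 and 95.5 ± 76.6 CPM with IgG (SD, n = 3 per group). An exact permutation test, two-sided like those below, gave p = 0.5, where 0.1 is the smallest p that 3 libraries against 3 allow. The fitted log2 fold change was 0.73 (SE 0.65, 95% interval -0.76 to 2.21; edgeR adjusted p = 1.00). It was 0.30 without IgG 3 and 1.52 without IgG 2, so either control moved its size.

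Smad5, the close relative of Smad1, was the steadiest member. It was at 156, 130.0 and 177 CPM in 15C4 1, 2 and 3 and at 128, 172 and 155 CPM in IgG 1, 2 and 3, and the groups overlapped over nearly their whole range. Its highest library exceeded its lowest 1.38-fold, against 6.82-fold for Smad1, and the SD of its log2 CPM over the 6 libraries, 0.23, was larger than that of only 1.77% of tested genes (median 0.91). The fitted log2 fold change was 0.12 (SE 0.34), and its 95% interval, -0.65 to 0.90, is the narrowest in the family: folds from 0.637 to 1.86 lie within it. The group means were 154 ± 23.5 CPM with 15C4 and 152 ± 21.7 CPM with IgG (SD, n = 3 per group).

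Smad9, the remaining BMP-branch member, had 0, 30 and 0 counts in 15C4 1, 2 and 3 and 4, 0 and 0 counts in IgG 1, 2 and 3. Signal was thus limited to 1 library of each group, at 1.53 CPM in 15C4 2 (exact Poisson 95% interval 1.03 to 2.19, counting error only) and 0.773 CPM in IgG 1 (0.211 to 1.98). In the 4 libraries with no count, levels up to 0.257 to 0.469 CPM, the worth of 3 counts, cannot be told from 0.

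Smad1 and the endothelial marker Cdh5, which encodes VE-cadherin, were high and low in the same libraries. Cdh5 was at 505, 1240 and 970.5 CPM in 15C4 1, 2 and 3 and at 624, 1201 and 46.3 CPM in IgG 1, 2 and 3. The 3 libraries with the most Cdh5 were also the 3 with the most Smad1, and IgG 3 was lowest for both. Cdh5 is 1 of the 20 pan-endothelial markers, and their sum ranked the libraries otherwise. IgG 1, at 1887 CPM, was above 15C4 3, at 1548 CPM, although 15C4 3 held more Smad1. Smad1 CPM amounted to between 13.3% and 19.2% of Cdh5 CPM in 5 libraries and to 56.3% in IgG 3. Smad5 amounted to between 10.5% and 30.9% in the same 5 and to 335% in IgG 3, where it stayed at 155 CPM although Cdh5 was low. As a measure of likeness, the root mean square difference between log2 CPM profiles centred on their means over the 6 libraries was 0.72 between Smad1 and Cdh5, the smallest distance to Cdh5 among the 7 tested members (up to 2.26 for the others). Smad1 was only somewhat farther, at 0.84, from Tyrp1, a melanin synthesis gene at 6369 to 8675 CPM. Smad5 was at 0.18 from Tyrp1, the smallest distance to that gene among the members, and at 1.65 from Cdh5. Genes that vary little are near each other by this measure, and the part of the cell mixture in these patterns was not tested.

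**Figure D2:**
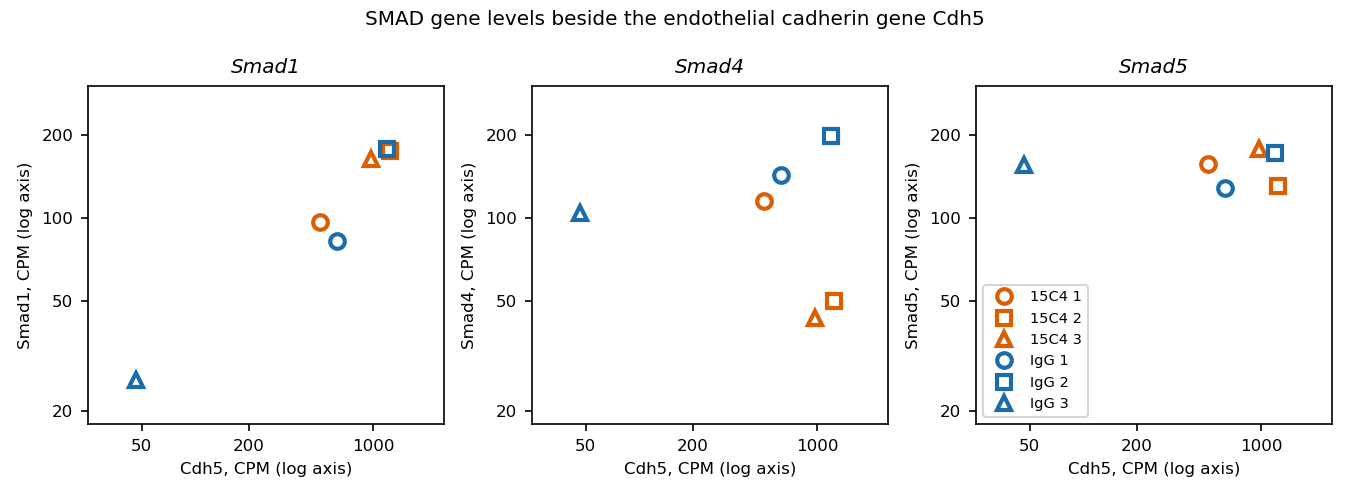
CPM of Smad1, Smad4 and Smad5 against CPM of Cdh5 in the 6 libraries, both on log axes; colour gives the group (15C4 orange, IgG blue) and shape the library number. IgG 3, at 46.3 CPM of Cdh5, has the lowest Smad1 (26.1 CPM), while its Smad5 (155 CPM) lies among the other libraries.

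In the TGF-beta branch, Smad2 was at 39.0, 109 and 24.9 CPM in 15C4 1, 2 and 3 and at 81.3, 101 and 52.7 CPM in IgG 1, 2 and 3. The 15C4 group held both the highest library and the 2 lowest. The fitted log2 fold change was -0.35 (SE 0.62, 95% interval -1.77 to 1.08), -1.21 without 15C4 2 and -0.01 without 15C4 3. Smad3 was at 67.5, 26.7 and 26.0 CPM in 15C4 1, 2 and 3 and at 32.1, 79.6 and 22.1 CPM in IgG 1, 2 and 3. One library in each group, 15C4 1 and IgG 2, held more than the other 4, which lay within 22.1 to 32.1 CPM. Its log2 fold change was -0.10 (SE 0.67), with a 95% interval from -1.63 to 1.43, and 0.60 without IgG 2.

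Both genes were high in IgG 2, but 15C4 1 was high in Smad3 only and 15C4 2 in Smad2 only. Per length, the ratio of Smad3 to Smad2 was 2.74, 0.389 and 1.65 in 15C4 1, 2 and 3 and 0.625, 1.25 and 0.665 in IgG 1, 2 and 3. SMAD2 and SMAD3 are transducers of the same receptors, and the more abundant of their transcripts differed between libraries within each group.

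Smad4, which encodes the shared partner of both branches, had the largest fitted difference from 0, in units of its error, among the members. It was at 115, 50.0 and 43.5 CPM in 15C4 1, 2 and 3 and at 143, 198 and 105 CPM in IgG 1, 2 and 3. The groups overlapped by 1 pair: 15C4 1 was above IgG 3, and the other 2 antibody-treated libraries were below every control. The mean was 69.6 ± 39.8 CPM with 15C4 and 149 ± 46.9 CPM with IgG (SD, n = 3 per group; exact permutation p = 0.2). The log2 fold change was -1.04 (SE 0.47, 95% interval -2.12 to 0.03), a fold of 0.486 whose interval runs from 0.231 to 1.02. The unadjusted p was 0.0558 and the edgeR adjusted p = 1.00, and over 15 alternatives the adjusted p lay between 0.846 and 1.00.

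The authors' deposited table gives Smad4 a log2 fold change of 0.997 as IgG over 15C4, the same direction, with a p-value of 0.0132 and an adjusted p-value of 0.177. It was lower in 15C4 with each library left out in turn, from -0.80 without IgG 2 to -1.51 without 15C4 1, on the log2 scale. Melanocyte marker sums overlapped between the groups, and IgG 3, with the fewest endothelial transcripts, had the lowest Smad4 of the controls. Among the 15C4 libraries, 15C4 1 had the lowest pan-endothelial sum (1514 CPM) and the highest Smad4. 15C4 3, close to it in that sum (1548 CPM), had the lowest Smad4. The part of the cell mixture in the Smad4 difference was not tested.

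The inhibitory members differed in abundance. Smad7, which encodes the general inhibitor of type I receptors, was at 47.4, 55.1 and 20.2 CPM in 15C4 1, 2 and 3 and at 21.4, 66.1 and 39.2 CPM in IgG 1, 2 and 3. Each group held a low and a high library, and the means were 40.9 ± 18.3 CPM with 15C4 and 42.3 ± 22.5 CPM with IgG (SD, n = 3 per group). The log2 fold change was 0.03 (SE 0.63, 95% interval -1.42 to 1.47), with a sign that turned under 2 other scalings.

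Smad6, which encodes the inhibitor of BMP-branch signalling and is known as an endothelial gene, had 0, 79 and 89 counts in 15C4 1, 2 and 3 and 9, 0 and 2 counts in IgG 1, 2 and 3. As CPM these are 0, 4.04 and 13.9 with 15C4 and 1.74, 0 and 0.171 with IgG. 15C4 2 and 15C4 3 stood above all controls, and 15C4 1 had no count, which allows up to 0.357 CPM. Pooled over libraries, the 15C4 group had 168 counts and the controls had 11, which makes the CPM ratio 11.8 (6.41 to 24.0 as its 95% interval from counting error alone). That ratio was 6.80 without 15C4 3, 15.6 without 15C4 1, 7.49 without IgG 2 and 52.1 without IgG 1 (14.2 to 434, on 2 control counts).

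With the spread between libraries, the log2 fold change of Smad6 was 3.44 (SE 2.34) with a 95% interval from -1.91 to 8.79 (edgeR adjusted p = 1.00; unadjusted 0.178). The authors' deposited table gives -3.56 as IgG over 15C4, with a p-value of 0.0233 and an adjusted p-value of 0.242. The 2 libraries with most Smad6 also differed in other markers: 15C4 2 had the highest pan-endothelial sum and 15C4 3 the highest fibroblast sum. IgG 2, with a pan-endothelial sum of 2674 CPM, had no Smad6 count. The part of these markers in the difference was not tested.

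**Figure D3:**
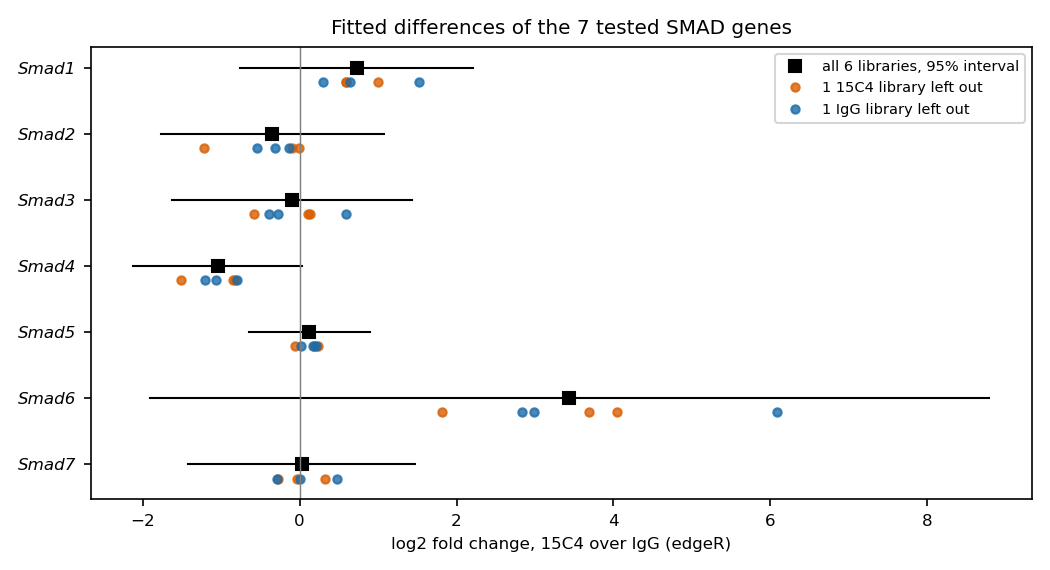
Fitted log2 fold change (15C4 over IgG, edgeR) of the 7 tested SMAD genes with its 95% interval (black), and below it the value with 1 library left out (orange for a 15C4 library, blue for an IgG library). Each interval includes 0; Smad4 reaches 0.03 at its upper end, Smad5 has the narrowest interval and Smad6 the widest.

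Per kilobase of exon, BMP-branch members (Smad1, Smad5 and Smad9) supplied 38.6%, 50.9% and 64.0% of the summed SMAD level in 15C4 1, 2 and 3 and 34.2%, 35.4% and 34.8% in IgG 1, 2 and 3. Smad4 supplied 32.8%, 15.0% and 15.0% in 15C4 1, 2 and 3 and 43.1%, 36.7% and 39.2% in IgG 1, 2 and 3. For both shares the groups did not overlap, but for the levels behind them they did. The BMP-branch level was 36.5 CPM per kilobase in 15C4 1 and 51.5 in IgG 2. Smad4 was at 31.1 in 15C4 1 and 28.2 in IgG 3. For single genes in CPM, the groups did not overlap for 9.52% of those tested, and no such figure was computed for shares. The part of the cell mixture in these shares was not tested. The shares were compared after the values were seen and are parts of 1 total, so a lower share of Smad4 raises the others, and they carry no test.

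The TGF-beta branch (Smad2 and Smad3) supplied 17.5%, 19.1% and 9.65% in 15C4 and 16.8%, 17.8% and 13.9% in IgG, and the inhibitory members 11.1%, 15.0% and 11.3% in 15C4 and 5.90%, 10.1% and 12.1% in IgG. Both overlapped. The family sum itself was 94.8, 89.9 and 77.9 CPM per kilobase with 15C4 and 89.7, 145 and 71.9 CPM per kilobase with IgG. IgG 2, the library with the most lymphatic transcripts, was the highest and IgG 3 the lowest, and the others lay between them. The ratio of Smad4 to Smad5 within a library, which does not depend on scaling between libraries, was 1.48, 0.768 and 0.491 in 15C4 and 2.23, 2.31 and 1.35 in IgG, so that 15C4 1 again reached into the control range.

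**Figure D4:**
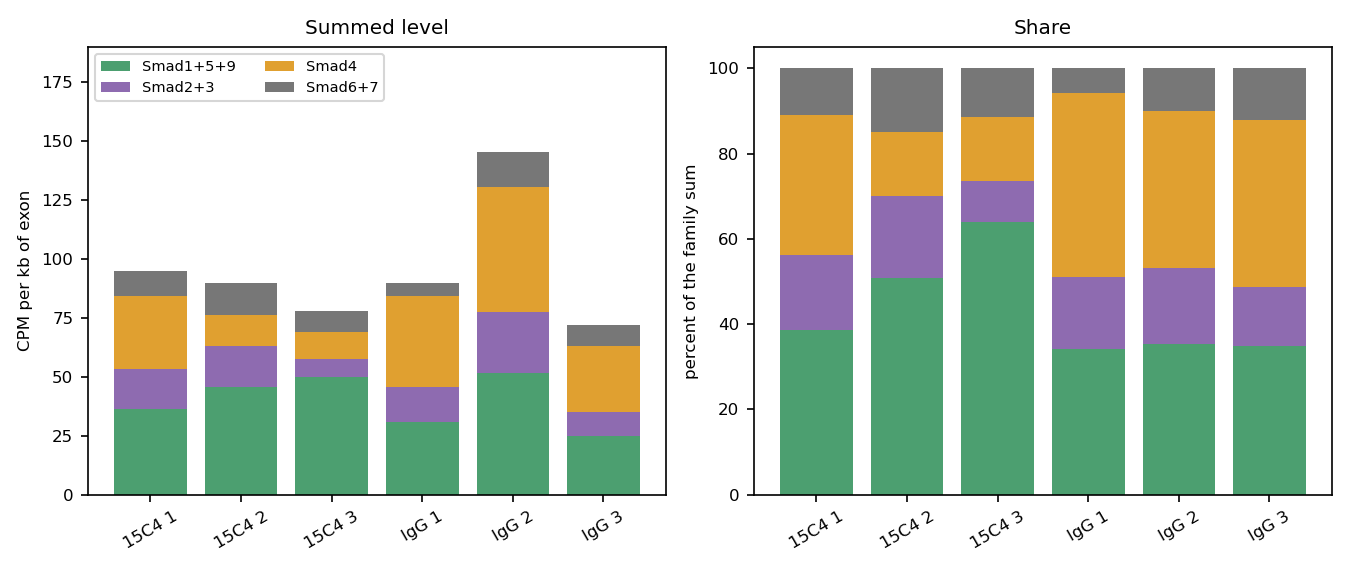
Make-up of the SMAD family in each library: left, summed level in CPM per kilobase of exon; right, share of that sum in percent; colours give BMP-branch (Smad1, 5 and 9), TGF-beta-branch (Smad2 and 3), common (Smad4) and inhibitory (Smad6 and 7) members. Smad4 makes up 36.7% to 43.1% in the IgG libraries and 15.0% to 32.8% in the 15C4 libraries.

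The genes closest in pattern to each member, by the same root mean square difference over the 6 libraries and among all tested genes, differed from member to member. Nearest to Smad1 were the kinase genes Prkch (0.14) and Cdc42bpa (0.22), both low in IgG 3 at 6.51 and 17.9 CPM. Nearest to Smad4 were Dnajc13 (0.18), a chaperone of endosomes, and Mcmbp (0.18), and nearest to Smad2 Gng11 (0.19), a G protein gamma subunit, and Secisbp2 (0.23). Smad3 was closest to the amino acid transporter gene Slc7a5 (0.17) and to Dbn1 (0.21). Smad7 was close to Tmub2 (0.15), and Smad5 to Tpp1 (0.09), a lysosomal peptidase, and Pole4 (0.10). The closest to Smad6 were Haao (0.68) and Naaa (0.74), both under 20 CPM in each library. Between members the smallest distance was 0.62, for Smad3 and Smad4, and no SMAD gene was among the 2 nearest of another.

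Of the genes around the SMADs, 0 of 71 tested list entries passed the edgeR test in either direction (0.0% of all genes did). Of 19 ligand genes 6 were tested, 2 fitted above 0 and 4 below, with a median log2 fold change of -0.42, and of 14 receptor genes 11 were tested, 5 above and 6 below (median -0.04). SMAD cofactors and repressors had 16 of 17 tested, 9 above and 7 below (median 0.20). The ligases, deubiquitinases, phosphatases and anchors that set SMAD turnover and transport had 20 of 21 tested, 11 above and 9 below (median 0.08). Of the SMAD1/5 responsive genes 6 of 12 were tested, 5 above and 1 below (median 0.43), and of the SMAD2/3 responsive genes 12 of 14, 8 above and 4 below (median 0.57). Over all tested genes 5649 were above and 5495 below 0, and several of these lists are short.

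Skil, which encodes the SMAD corepressor SnoN and is itself a target of the pathway, was at 88.4, 127 and 73.5 CPM in 15C4 1, 2 and 3 and at 76.9, 55.9 and 47.5 CPM in IgG 1, 2 and 3, a log2 fold change of 0.77 (SE 0.44). The groups overlapped only by IgG 1 and 15C4 3. Ywhae, which encodes a 14-3-3 protein, was at 713 CPM or more throughout and had a log2 fold change of 0.47 (SE 0.36; 0.18 without 15C4 3). Ipo7, an importin that has been linked to nuclear entry of SMADs, was at 55.1, 44.8 and 53.2 CPM with 15C4 and at 155, 92.7 and 165 CPM with IgG. Its groups did not overlap (log2 fold change -1.34, SE 0.41, unadjusted p = 0.0112, edgeR adjusted p = 1.00), as for 9.52% of tested genes. Zfyve16, which encodes endofin, a SMAD anchor on endosomes, had a log2 fold change of 1.34 (SE 0.61), with the groups overlapping.

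Among ligands and receptors, Tgfb3 had 0, 2 and 0 counts in 15C4 and 28, 28 and 16 in IgG, Inhbb, the activin B subunit, a log2 fold change of 1.24 (SE 0.73; 2.08 without IgG 2 and 0.75 without 15C4 1), and Acvr2a, an activin receptor, 0.79 (SE 0.50; 0.50 without 15C4 3). Tgfbr3, the co-receptor betaglycan, was at 27.4 CPM in IgG 2 and at most 2.38 CPM in the other 5, so its log2 fold change of -2.15 became 1.67 without IgG 2. Of the responsive genes, Id2, a BMP-branch target, was at 521, 437 and 459 CPM in 15C4 and at 228, 88.5 and 193 CPM in IgG, and Hey1 at 81.3, 76.3 and 42.1 against 20.7, 27.9 and 7.37 CPM. Their groups did not overlap, as for 9.52% of tested genes, and neither passed (log2 fold change 1.56, SE 0.40, and 1.91, SE 0.64; edgeR adjusted p = 1.00 for both). Both were named for the smallest unadjusted p of their list. Id1, Id3, Hey2 and Unc5b, the other tested genes of that list, overlapped between the groups, with log2 fold changes from -0.09 to 0.54. Hey1 is also a Notch target. Cdkn1a, induced by SMAD3 and also by p53, was at 58.2, 50.7 and 61.8 CPM in 15C4 and at 126, 105 and 224 CPM in the controls. Its log2 fold change was -1.32 (SE 0.44), and -0.89 without IgG 3.

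**Figure D5:**
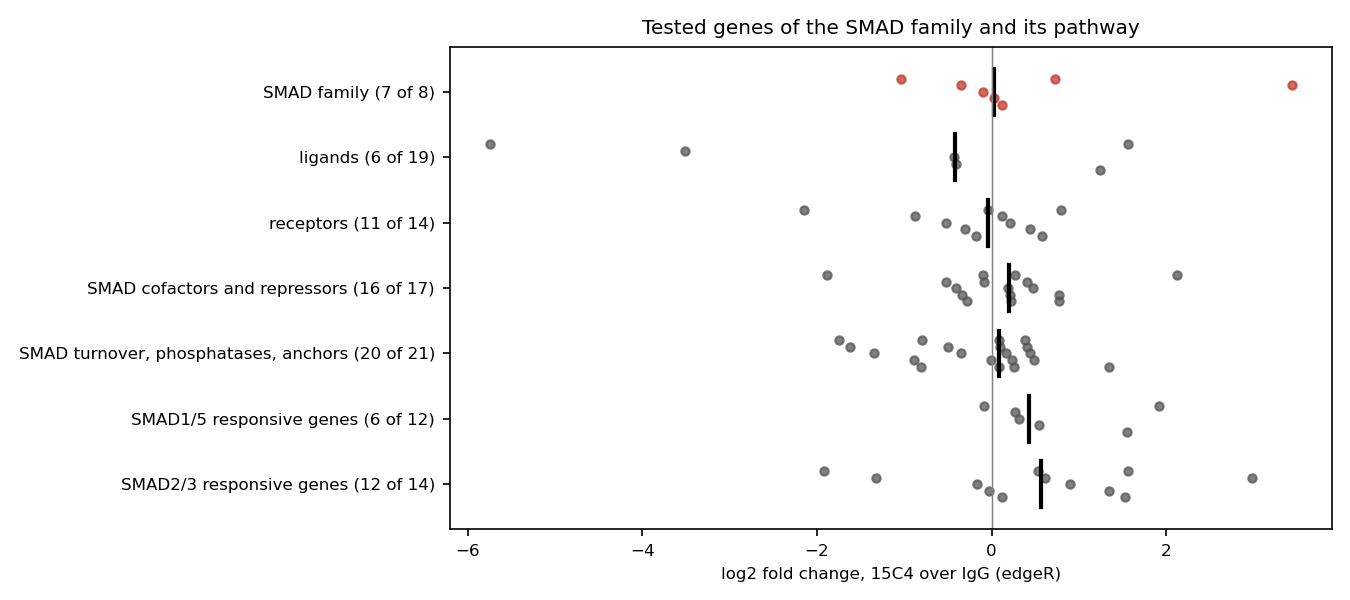
Fitted log2 fold change (15C4 over IgG, edgeR) of each tested gene of the SMAD family (red) and 6 pathway lists (grey), with the number tested of the number listed; black bars are medians. SMAD genes lie between -1.04 and 3.44 with a median of 0.03, and no gene shown passed the test.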

How the data were processed

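RNA was sequenced from endothelial cells sorted out of B16F0 tumours, in 3 libraries from mice given 15C4 and 3 from mice given IgG. The authors deposited 1 raw read count per gene symbol and library. The submitters' processing notes name STAR 2.5b, featureCounts, fastp and DESeq2 as tools and list mm10 and mm9 as builds, without roles. Which annotation and strand setting were used is not given in the sources used here. A second file, the authors' deposited table, also holds normalised values (a score: counts divided by a size factor and rounded), a fold ratio, its log2 value (IgG over 15C4), a p-value and an adjusted p-value per gene; it is used only where named. For the 24394 symbols that matched, its raw counts were identical to the per-library files.

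Levels are CPM, counts scaled to the total of the library. For comparison between genes, CPM was divided by the union of the gene's exons in GENCODE M21 on GRCm38. Differences are from edgeR 4.0.16 (R 4.3.3): TMM normalisation, filterByExpr with a minimum count of 10 and a total of 15, the quasi-likelihood test with treatment as the only term, and Benjamini-Hochberg adjustment over 11144 genes with a threshold of 0.05. The standard error (SE) is the absolute log2 fold change over the square root of F, and 95% intervals use the test's total degrees of freedom. The script was tested on simulated data. DESeq2 1.42.0 and limma 3.58.1 (voom) were alternatives, beside other normalisations, filters, the replicate block and leaving out each library. Members and lists were chosen with earlier results of these data known. Named genes beside the 8 members are the 2 with the smallest unadjusted p in each of 6 pathway lists, and for each tested member the 2 tested genes, other than predicted ones, with the smallest root mean square difference of centred log2 CPM (prior count 2); 2 of the genes this rule names are not reported here. Promoter sequences are RefSeq entries on GRCm38.p6.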

Additional observations from a re-analysis of the deposited data

How the results depend on the processing

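No SMAD gene passed an adjusted p of 0.05 in any of 104 alternative values for the 7 tested members, the lowest adjusted p being 0.846. The count over all genes, 0 with edgeR, was 26 with DESeq2 (3 higher and 23 lower) and 1 with no filter beyond 1 count, and 0 in each setting that left out a library. Smad1, Smad2, Smad4 and Smad6 kept the sign of their log2 fold change in each alternative run. With 1 library left out, values ran from 0.30 to 1.52 for Smad1, -1.21 to -0.01 for Smad2, -1.51 to -0.80 for Smad4 and 1.81 to 6.08 for Smad6. Sign turned for Smad3 (-0.58 to 0.60), Smad5 (-0.052 to 0.24) and Smad7 (-0.29 to 0.48), and for Tgfbr3 (-2.70 to 1.67). Smad7 was -0.069 with upper quartile scaling and -0.050 with library totals only. The median over all genes in these settings was -0.088 and -0.075, so Smad7 stayed slightly above it in both. Tgfbr3 was 0.16 with limma-voom and 0.014 with sample weights. The cause of these turns was not tested. With the replicate number as a block, Smad3 was 0.022, Tgfbr3 0.46 and the count of calls 0. Same-numbered libraries of the 2 groups correlated at -0.04, 0.06 and 0.10 in their deviations from the group means. 15C4 1 was closest to IgG 2 (0.07), while 15C4 2 and 15C4 3 were closest to the control of their own number. Correlations this near 0 cannot decide whether the numbers pair the libraries. The median log2 fold change of all genes was 0.01 in the reported fit, -0.15 with the replicate block, -0.14 with limma-voom and -0.12 with sample weights. Values of the members in these alternatives are to be read beside those medians. Without length scaling (plain CPM), shares in IgG were 44.1% for the BMP branch, 21.5% for the TGF-beta branch and 26.7% for Smad4. In 15C4 they were 13.5% for Smad4 and 9.03% for the inhibitory members. These shares differ from those per length because the members differ in exon length. The groups still did not overlap for the shares of the BMP branch and Smad4, while the CPM behind both overlapped. Smad6 and Smad9 had 0 counts in 2 and 4 libraries.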
